A study of Mus musculus with 2 samples.

Results

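The genes described here encode the machinery that licenses and copies DNA in S phase and the regulators that switch it on at the end of G1, in mouse embryonic fibroblasts (MEFs), connective-tissue cells grown from embryos. They were chosen by name: probe sets whose single platform gene symbol was 1 of 54 listed genes. All 54 genes were measured, by 58 probe sets, among 19938 genes in all. Expression was measured once in MatDup.dist7 MEFs and once in PatDup.dist7 MEFs, both from embryos at 13.5 days post coitum and both grown in medium with fetal serum. In the former the distal part of chromosome 7 has both copies from the mother, and in the latter both copies from the father. No wild-type culture was part of this comparison, and how many embryos went into each culture was not given in the sources used here. With 1 array per genotype and no replicate, the differences below could not be tested.

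Replication starts from origins that are marked by the origin recognition complex. In G1, Cdc6 and Cdt1 load the ring-shaped helicase made of Mcm2 to Mcm7 onto the DNA there, and geminin holds Cdt1 back once S phase has begun. Cyclin E with Cdk2, and the kinase pair Cdc7 and Dbf4, then bring Cdc45 and the GINS complex to the ring, which makes it an active helicase. DNA polymerase alpha with primase lays down primers, the clamp loader RFC places the PCNA ring, and polymerases epsilon and delta extend the strands. E2F transcription factors are known to drive many of these genes when the retinoblastoma protein is inactivated. In embryonic fibroblasts the set is commonly read as a marker of proliferation.

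The promoters of a part of these genes held a motif that the choice of genes did not use. RefSeq promoter windows of 300 bases (250 before to 50 after the start of the gene, build GRCm38.p6) were available for 45 of the 54 genes, in 55 windows. Gins1, Gins2, Gins4, Mcm4, Prim2, Pole, Rfc2, Gmnn and Ccne2 had no window in the table. An E2F-type motif, searched on both strands as TTTCCCGC, TTTCGCGC, TTTGCCGC or TTTGGCGC, was found in 19 of the 55 windows (34.5%), compared with 2.26% of all 32851 windows. Counted by gene, 19 of 45 held it (42.2%), against 2.6% of the 27025 genes of the table. The CCAAT box, searched as CCAAT on both strands, was in 56.4% of the members' windows and 37.4% of all windows. The cell cycle homology region of mitotic genes, searched as TTTGAA or TTTAAA on both strands, was in 21.8% and 27.6%. A match is a string of letters and not a measured binding site.

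The following stretches, read 5′ to 3′ along the gene, show the E2F-type match in capitals for 15 of the 19 members that hold one. Capitals that begin with GCG are the motif read on the opposite strand.
Orc1 (chr4:108579416-108579445, plus strand): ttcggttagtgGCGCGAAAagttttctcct
Orc3 (chr4:34614965-34614994, minus strand): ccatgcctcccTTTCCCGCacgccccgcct
Cdc6 (chr11:98908002-98908031, plus strand): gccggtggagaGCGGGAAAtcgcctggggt
Cdt1 (chr8:122568036-122568064, plus strand): ggaactaccttTTTGGCGCcatggcgcaa
Mcm5 (chr8:75109345-75109374, plus strand): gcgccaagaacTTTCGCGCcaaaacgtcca
Mcm7 (chr5:138172030-138172059, minus strand): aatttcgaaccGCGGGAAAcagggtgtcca
Gins3 (chr8:95633507-95633536, plus strand): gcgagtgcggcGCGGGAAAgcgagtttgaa
Pola1 (chrX:93632275-93632304, minus strand): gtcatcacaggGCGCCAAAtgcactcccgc
Pold3 (chr7:100121467-100121496, minus strand): gagcgaagctgTTTCCCGCcggcgggagct
Pole2 (chr12:69228162-69228191, minus strand): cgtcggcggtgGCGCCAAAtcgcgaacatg
Rfc3 (chr5:151651200-151651229, minus strand): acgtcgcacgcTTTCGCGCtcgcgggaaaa
Lig1 (chr7:13278841-13278870, plus strand): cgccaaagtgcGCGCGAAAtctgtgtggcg
Cdk2 (chr10:128705173-128705202, minus strand): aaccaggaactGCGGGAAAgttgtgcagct
E2f3 (chr13:29986056-29986085, minus strand): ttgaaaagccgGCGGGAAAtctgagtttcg
Dtl (chr1:191575534-191575563, minus strand): cgtgacgtcagTTTGGCGCggagtttggcg
The match begins 27 bases before the start of Orc1, 41 before those of Orc3 and Gins3, and 138 before those of Cdc6 and Pola1. That of Cdk2 lies 140 bases before the start and that of Mcm7 165 bases before it. The Mcm5 match is overlapped by TTTGGCGC on the opposite strand, which shares 4 of its letters. In Cdt1, Pold3, Pole2 and Lig1 the match lies after the start, within the first 50 bases. The Rfc3 stretch also contains a second match, left in lower case, on the opposite strand.

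The upstream 250 bases of Mcm3 and Mcm6 are shown because these genes stood at opposite ends of the differences among the 6 subunit genes of the ring. Capitals mark E2F-type and CCAAT matches.
Mcm3 (chr1:20820313-20820562, minus strand): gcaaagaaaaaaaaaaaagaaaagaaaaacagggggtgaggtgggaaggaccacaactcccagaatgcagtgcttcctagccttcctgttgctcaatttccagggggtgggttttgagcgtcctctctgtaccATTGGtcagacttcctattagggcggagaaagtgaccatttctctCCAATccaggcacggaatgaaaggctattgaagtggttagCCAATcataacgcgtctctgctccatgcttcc
Mcm6 (chr1:128359706-128359955, minus strand): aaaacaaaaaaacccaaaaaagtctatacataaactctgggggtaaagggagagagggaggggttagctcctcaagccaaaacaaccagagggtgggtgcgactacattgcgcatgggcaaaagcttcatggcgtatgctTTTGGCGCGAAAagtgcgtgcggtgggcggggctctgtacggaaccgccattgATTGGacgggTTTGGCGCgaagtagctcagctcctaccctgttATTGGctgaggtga
The Mcm6 sequence holds 3 E2F-type matches, 2 of them overlapping in the run TTTGGCGCGAAA, and 2 CCAAT matches on the opposite strand. The Mcm3 sequence holds no E2F-type match and 3 CCAAT matches. Its 2 E2F-type matches lie after the start, beyond the stretch printed.

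Expression values are probe set intensities on a linear scale. For each gene, log2(intensity + 16) was computed and probe sets were averaged. The PatDup.dist7 value was subtracted from the MatDup.dist7 value, so a positive difference is higher in MatDup.dist7. Where a pair of intensities is given for a gene, that of MatDup.dist7 comes first. The added 16 makes differences of weakly detected genes smaller than their intensity ratios. A gene was called above the signal filter when its higher intensity exceeded 66.4, the median of all values on both arrays. Of the 54 genes, 45 were above it and 9 under it, and 8 of the 45 passed through 1 array alone. Where a gene above the filter had several probe sets, their differences scattered with a standard deviation of 0.43 (1931 probe sets of 724 genes). The spread was not computed for genes under the filter. That spread describes agreement on these arrays and says nothing of how cultures vary.

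The arrays went with their labels at imprinted genes of distal chromosome 7. Cdkn1c, a kinase inhibitor gene active on the maternal copy, stood at 1109 and was listed at 0.0132 in PatDup.dist7, and Igf2, a growth factor gene active on the paternal copy, stood at 7.48 and 1013. Sex-linked transcripts differed as well: the Y-linked Eif2s3y, Uty and Kdm5d ranged from 77.9 to 122 in MatDup.dist7 and from 2.61 to 22.9 in PatDup.dist7, while Xist was listed at 0.00166 and 91.2. Genotype and these sex-linked transcripts cannot be told apart with 1 array each. The fibroblast gene Vim stood at 11913 and 11542. Dcn, the fibroblast marker with the largest difference, stood at 142 and 592 (log2 difference -1.95). Of the fixed marker lists, 9 of 10 cartilage genes and 9 of 10 epithelial genes were higher in MatDup.dist7, with medians of 0.67 and 0.47. Fibroblast and macrophage markers were lower there in 11 of 14 and 10 of 14 cases, with medians of -0.30 and -0.40, and endothelial and erythroid lists had medians of -0.03 and 0.08. Over all genes 51.4% were higher in MatDup.dist7. Only 5 of 10 cartilage, 7 of 10 epithelial, 2 of 9 endothelial and 1 of 6 erythroid genes were above the signal filter. For fibroblast and macrophage markers it was 12 of 14 and 13 of 14. Summed intensities on the MatDup.dist7 and PatDup.dist7 arrays were 1206 and 496.9 for cartilage, 1101 and 664.7 for epithelium, 44770 and 53590 for fibroblasts, and 7876 and 9141 for macrophages. The part of these cell types in the replication values was not tested. Fewer cells of a type and less RNA per cell cannot be told apart in such cultures.

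As a group, the replication and G1/S genes lay slightly toward MatDup.dist7 and few were far apart. Their median log2 difference was 0.16, compared with 0.02 over all genes and -0.01 over the genes above the signal filter. Of the 54, 34 had a positive difference (63.0%), against 51.4% of all genes. A difference of at least 1.5-fold toward MatDup.dist7 was reached by 8 members (14.8%), close to the 15.5% of all genes that did so. Toward PatDup.dist7 it was reached by 2 members (3.7%), against 12.5% of all genes. A 2-fold difference was reached by Gins3 and Rpa1, which is 3.7% of the members, against 7.63% of all genes. Among genes above the signal filter, 12.2% were at least 1.5-fold toward MatDup.dist7 and 10.9% toward PatDup.dist7. Of the 45 members above it, 5 (11.1%) and 2 (4.44%) were. Scaling moved the split over all 54 members. The 8 and 2 became 6 and 4 with each array centred on its median, where 12.3% and 16.03% of all genes passed. They became 7 and 4 after quantile normalisation, where 13.8% of all genes passed in each direction.

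**Figure D1:**
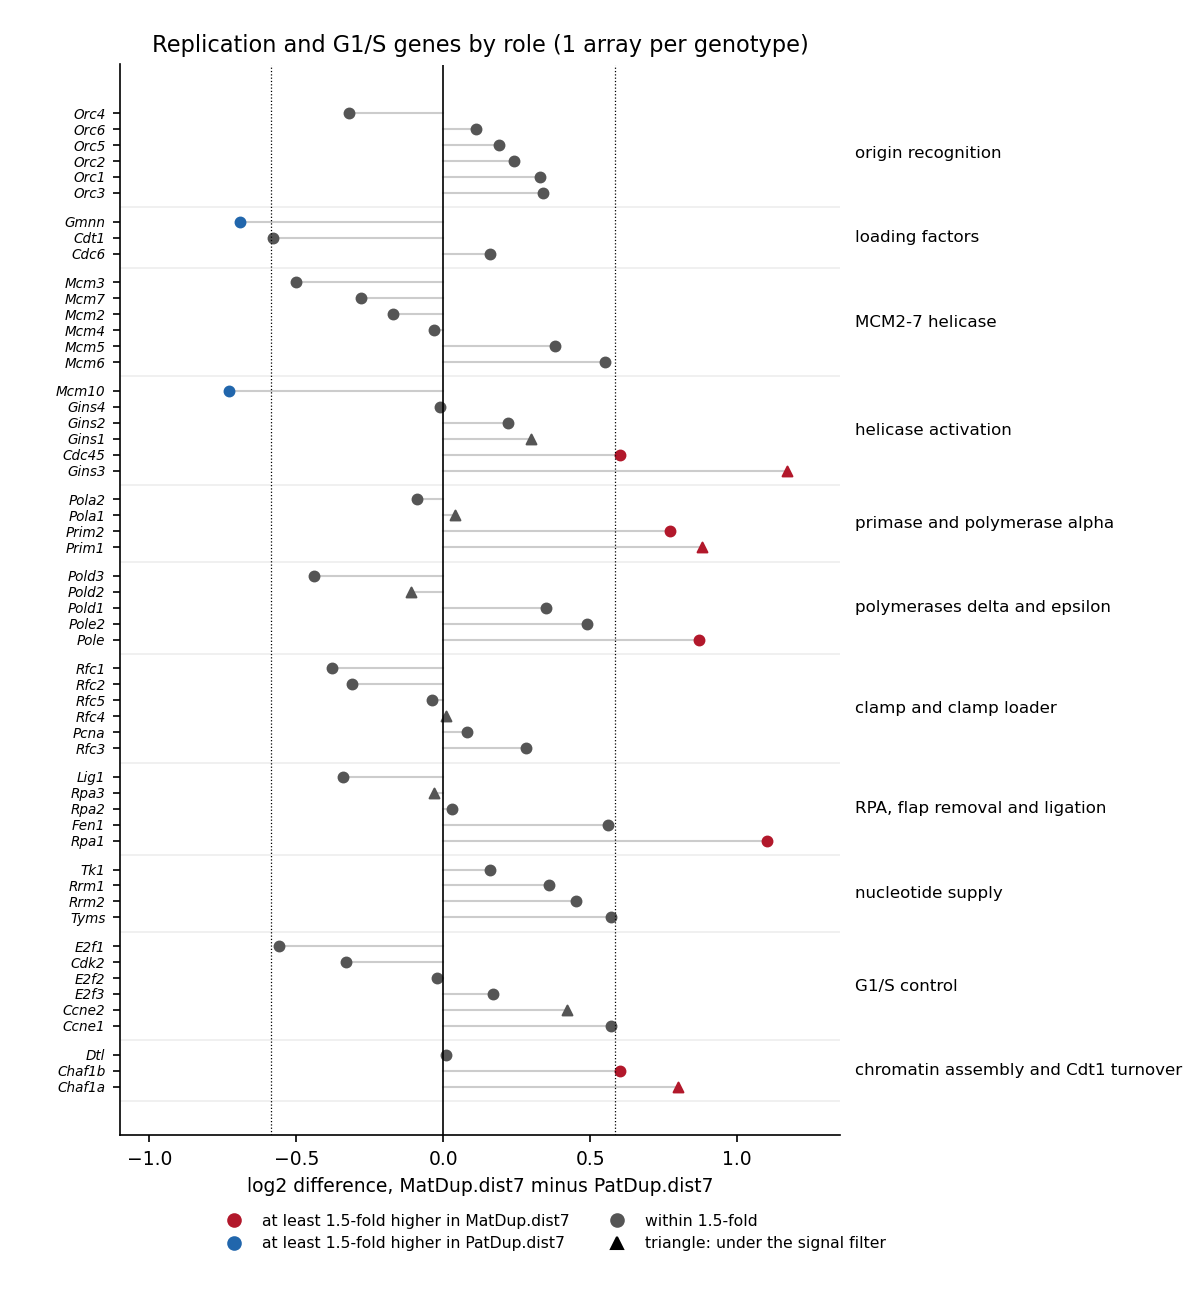
Log2 difference (x axis, MatDup.dist7 minus PatDup.dist7) of the 54 genes, grouped by role, with 1 array per genotype and no error bars. Dotted lines mark 1.5-fold; Gins3 at 1.17 and Mcm10 at -0.73 are the extremes, and both lie in the helicase activation group.

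**Figure D2:**
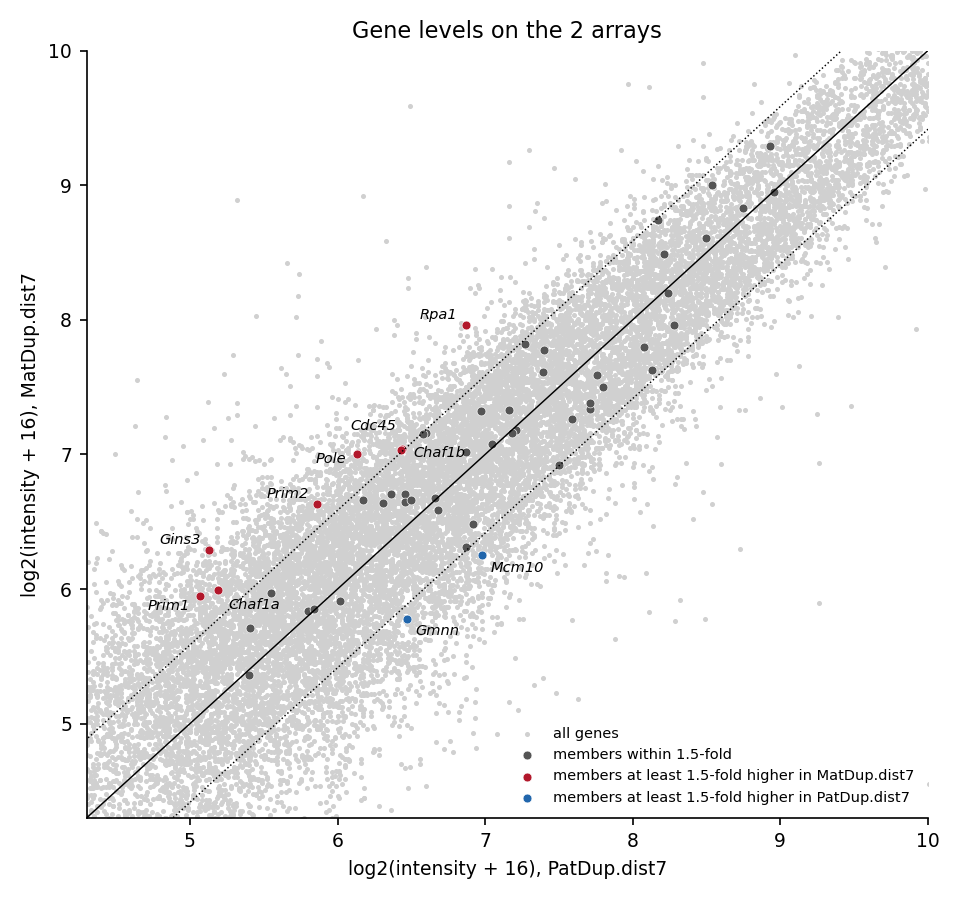
Level of each gene, log2(intensity + 16), on the PatDup.dist7 array (x axis) and the MatDup.dist7 array (y axis), for members in colour and all genes in grey; the axes end near the range of the members, and genes beyond are not drawn. The solid line is equality and the dotted lines 1.5-fold, and 44 of the 54 members lie between the dotted lines.

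Origin recognition genes differed little. Orc1, the ATP-binding subunit that cycles with the cell cycle, had intensities of 83.8 and 63.5 (log2 difference 0.33). Orc3, a core subunit, had 88.6 and 66.3 (0.34), the largest difference of the 6 subunit genes. Orc4 was the only one lower in MatDup.dist7, at 233 and 295 (-0.32). The remaining core subunit genes Orc2 and Orc5 had differences of 0.24 and 0.19, and Orc6, whose product joins the complex loosely, of 0.11. The median was 0.22, no subunit gene reached 1.5-fold, and 5 of 6 stayed positive after centring and after quantile normalisation.

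Among the factors that load the helicase, the gene pair of the licensing protein Cdt1 and its inhibitor geminin was lower in MatDup.dist7. Gmnn, which encodes geminin, had 38.9 and 72.7 (log2 difference -0.69, a 1.62-fold difference). Cdt1 had 105 and 165 (-0.58), a 1.49-fold difference that falls just short of 1.5-fold. Its difference was past 1.5-fold with a pseudocount of 1 (-0.64), after centring (-0.66) and after quantile normalisation (-0.62), and -0.44 with a pseudocount of 64. Cdc6, the ATPase that recruits the ring with Cdt1, went the other way by a small amount, at 114 and 101 (0.16). Thus licensing factor and inhibitor were both higher in PatDup.dist7 while Cdc6 was within the probe set spread. Gmnn passed the signal filter on the PatDup.dist7 array alone. Among genes above that filter, 15.6% differed by as much as Gmnn in either direction and 23.6% by as much as Cdt1.

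The 6 genes of the helicase ring did not move as a block. Mcm2 had 177 and 201 (log2 difference -0.17). Mcm3 was lower in MatDup.dist7 by more, at 182 and 265 (-0.50). Mcm4 was almost equal on the arrays, at 129 and 132 (-0.03). The ring holds 1 copy of each subunit. Mcm5 had 203 and 153 (0.38), higher in MatDup.dist7. Mcm6 had 210.0 and 138 (0.55), the largest positive value of the ring genes and a 1.46-fold difference. Mcm7 had 207 and 254 (-0.28). Of the 6, 2 were positive and 4 negative, the median was -0.10, and none reached 1.5-fold. Mcm3 and Mcm6 stood 1.05 apart on the log2 scale. With a pseudocount of 1 the Mcm6 difference was 0.60, past 1.5-fold. Mcm5 and Mcm6 were also the positive ones after centring and after quantile normalisation. Of the ring genes with a promoter window, Mcm5, Mcm6 and Mcm7 hold E2F-type matches before their start, Mcm3 holds them after its start, and Mcm2 holds none.

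Genes that turn the loaded ring into an active helicase held the widest range. Gins3, which encodes a GINS subunit, had 62.4 and 18.9 (log2 difference 1.17, or 2.24-fold), the largest value of all 54 genes. It lay under the signal filter, and its difference was 1.67 with a pseudocount of 1 and 0.61 with 64. Of the 7205 genes under the filter, 7.36% differed by as much in either direction, and of those above it 3.13%. The partner subunits did not share it: Gins1 had 36.2 and 26.5 (0.30), Gins2 had 179 and 152 (0.22), and Gins4 had 479.8 and 483 (-0.01). All 4 products are needed for 1 complex. Cdc45, the further helicase cofactor, had 115 and 70.8 (0.60, 1.52-fold). Mcm10, a scaffold that acts as the helicase is activated, was the lowest member of all in MatDup.dist7 relative to PatDup.dist7, at 60.1 and 110.0 (-0.73, 1.66-fold). Cdc45 and Mcm10 were thus at least 1.5-fold apart in opposite directions. Mcm10 passed the signal filter on the PatDup.dist7 array alone, while Cdc45 was above it on both. Cdc45 was no longer past 1.5-fold after centring or after quantile normalisation, whereas Gins3 and Mcm10 were.

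Primase genes were higher in MatDup.dist7 and those of its polymerase partner were within 0.1 of equality. Prim1, the catalytic primase subunit, had 45.9 and 17.6 (log2 difference 0.88, 1.84-fold). Prim2, the regulatory subunit, had 82.9 and 42.1 (0.77, 1.70-fold). Both primase subunits were past 1.5-fold after centring and after quantile normalisation too. Pola1, the catalytic subunit of polymerase alpha, had 41.3 and 39.8 (0.04), and Pola2, its accessory subunit, had 80.4 and 86.4 (-0.09). Pola1 is the only one of the 54 genes on the X chromosome, and its level was similar on arrays that differed in sex-linked transcripts. Prim1 and Pola1 lay under the signal filter, and Prim2 passed it on the MatDup.dist7 array alone. With a pseudocount of 64 the values of Prim1 and Prim2 were 0.43 and 0.47, below 1.5-fold.

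The genes of polymerases epsilon and delta were split. Pole, the catalytic subunit of the leading-strand polymerase, had 112 and 54.2 (log2 difference 0.87, 1.82-fold). Pole2, its second subunit, had 85.1 and 56.1 (0.49). Neither PatDup.dist7 value exceeded the filter level. The small epsilon subunit genes, which are no members, were lower in MatDup.dist7: Pole3 had 105 and 131 (-0.28) and Pole4 had 189.7 and 285 (-0.55). For polymerase delta, Pold1, the catalytic subunit, had 144 and 109 (0.35). Pold3, an accessory subunit, had 73.3 and 105 (-0.44), and Pold2 had 44.1 and 49.1 (-0.11). The smallest delta subunit gene, Pold4, also no member, had 111 and 169.8 (-0.55). The catalytic subunits of both replicative polymerases were thus higher in MatDup.dist7, Pole by over 1.5-fold and Pold1 by less.

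The clamp and its loader stood near equality. Pcna, the sliding clamp, was read by 2 probe sets, which had 955 and 837 (log2 difference 0.19) and 196 and 201 (-0.04). Their mean difference of 0.08 was smaller than the spread between probe sets. Rfc1, the large loader subunit, had 146 and 194 (-0.38), the lowest of the group, and Rfc3 had 345 and 280.1 (0.28), the highest. Rfc2, Rfc4 and Rfc5 had -0.31, 0.01 and -0.04. No gene of the group reached 1.5-fold, and its median was -0.02, with 3 of 6 positive, or 1 of 6 after centring.

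Among the genes for single-strand binding and lagging-strand joining, Rpa1 stood apart. Rpa1, the large subunit of the single-strand binding protein RPA, had 233 and 101 (log2 difference 1.10, or 2.14-fold). It was above the filter on both arrays, and 3.77% of the genes above the filter differed by as much. It was also the only one of the 10 members past 1.5-fold that stayed past it in all 8 alternatives. Several of these could not move it, since it has 1 probe set, on chromosome 11, and passes the filter. A pseudocount of 1 could only widen it. Its difference was 0.85 with a pseudocount of 64, 1.02 after centring and 1.06 after quantile normalisation. Its partners were near equality: Rpa2 had 119 and 117 (0.03), and the probe sets of Rpa3 had 32.5 and 42.9 (-0.28) and 18.9 and 14.2 (0.21), opposite in sign. Fen1, the nuclease that trims flaps between Okazaki fragments, had 127 and 80.8 (0.56). Lig1, the ligase that seals them, had 137 and 177 (-0.34). These enzymes act on the same fragments, and their genes differed in opposite directions by less than 1.5-fold.

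All 4 genes for nucleotide supply were higher in MatDup.dist7, each by less than 1.5-fold. Tyms, which makes thymidylate, had 126 and 79.9 (log2 difference 0.57, 1.48-fold). Rrm2, the cell-cycle-regulated subunit of ribonucleotide reductase, had 496 and 358 (0.45), and Rrm1, its large subunit, had 610.3 and 472 (0.36). The reductase subunits differed by similar amounts in the same direction. Tk1, the thymidine salvage kinase, had a mean difference of 0.16, but its probe sets disagreed, with 45.5 and 68.0 (-0.45) at one and 150.2 and 81.9 (0.76) at the other. The direction for Tk1 thus depends on the probe set. The group median was 0.41, and all 4 stayed positive after centring and after quantile normalisation.

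The regulators of G1/S went in both directions, with 3 of 6 positive. E2f1 had 63.6 and 101 (log2 difference -0.56, 1.47-fold), and passed the signal filter on the PatDup.dist7 array alone. E2f2 was near equality, at 127 and 129 (-0.02), and E2f3 had probe sets at 120.1 and 122 (-0.02) and at 174 and 132 (0.36). The 3 encode the activating members of the E2F family. Ccne1, a cyclin E gene, had 410.3 and 271 (0.57, 1.48-fold), and Ccne2, its relative, 46.7 and 30.9 (0.42). Ccne2 lay under the signal filter, and its difference was within the probe set spread, which was measured on genes above the filter. Both cyclin E genes were higher in MatDup.dist7, while Cdk2, the kinase they activate, had 151 and 193.5 (-0.33). No gene of this group reached 1.5-fold. E2f1 passed it toward PatDup.dist7 after centring, after quantile normalisation and with a pseudocount of 1. Ccne1 passed it toward MatDup.dist7 after quantile normalisation and with a pseudocount of 1 (0.60 each), but not after centring (0.49).

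Genes of chromatin assembly behind the fork were higher in MatDup.dist7. Chaf1a and Chaf1b encode subunits of CAF-1, which places histones on new DNA. Chaf1a had 47.6 and 20.5 (log2 difference 0.80, 1.75-fold), under the signal filter. Chaf1b had 115 and 70.0 (0.60, 1.52-fold), and was within 1.5-fold after centring and after quantile normalisation. Dtl, the adaptor that directs Cdt1 to destruction in S phase, was near equality at 86.3 and 85.3 (0.01), while its target Cdt1 was lower in MatDup.dist7.

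In GINS and in RPA, 1 subunit gene was past 1.5-fold and its partners were not, while in polymerase alpha with primase both primase genes were. The range of differences was 1.18 within GINS, 1.13 within RPA, 1.05 within the helicase ring, 0.97 within polymerase alpha with primase and 0.66 within RFC. With Pole3, Pole4 and Pold4 counted it was 1.42 within polymerase epsilon and 0.90 within polymerase delta, and over the members alone 0.38 and 0.79. In these complexes Gins1, Gins3, Rpa3, Prim1, Pola1, Rfc4 and Pold2 lay under the signal filter. There the added 16 makes differences smaller than intensity ratios, so these ranges rest in part on weakly detected genes. The standard deviation over the 54 genes was 0.45, compared with 0.54 over all genes above the signal filter and 0.58 over all genes. Members just short of 1.5-fold were Cdt1, Tyms, Ccne1, Fen1, E2f1, Mcm6 and Mcm3, with folds from 1.42 to 1.49, and those just past it were Cdc45 and Chaf1b at 1.52.

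**Figure D3:**
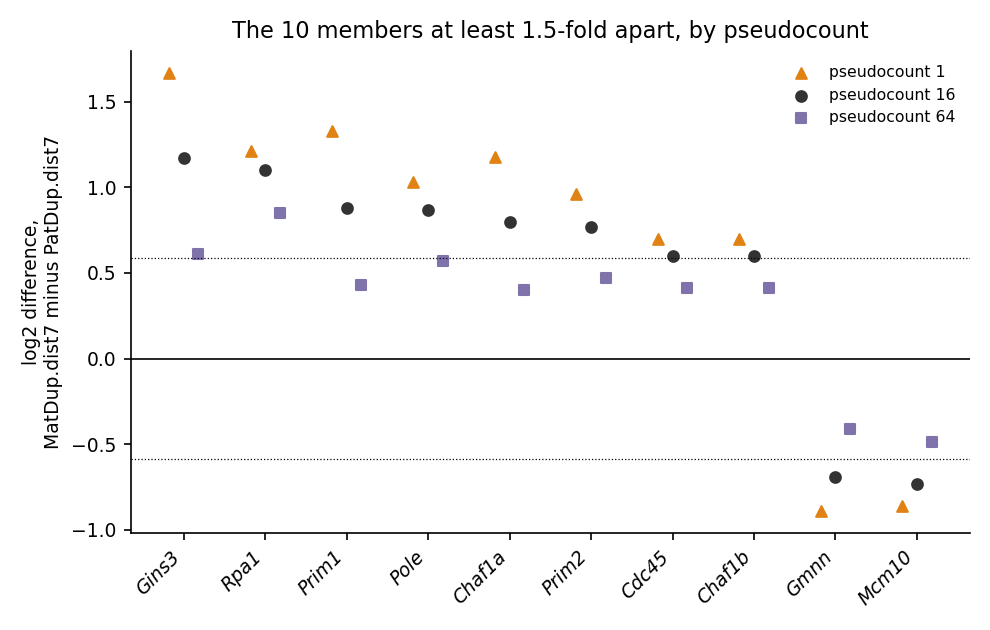
Log2 difference (y axis) of the 10 members at least 1.5-fold apart, computed with pseudocounts of 1, 16 and 64, with 1 array per genotype and no error bars. The pseudocount cannot change a sign here, as each gene has 1 probe set. With 64 only Gins3 (0.61) and Rpa1 (0.85) remain past the dotted 1.5-fold lines.

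Chromosome 7 carries 5 of the 54 genes, Lig1, Ccne1, Pold1, Pold3 and Rrm1. In the order of the 1738 measured genes along the chromosome (GRCm38.p6) they stand at places 141, 548, 619, 1010 and 1054, while Igf2 and Cdkn1c stand at 1699 and 1711. None was assigned to the duplicated segment, whose start was not given in the sources used here. Their differences ran from -0.44 for Pold3 to 0.57 for Ccne1, with a median of 0.35 and 3 of 5 positive. None reached 1.5-fold.

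Members with and without an E2F-type match had differences in both directions. The 19 genes with an E2F-type match ran from -0.58 (Cdt1) to 1.17 (Gins3), with a median of 0.16 and 12 positive. The 26 without a match ran from -0.73 to 1.10, with a median of 0.13 and 17 positive. At least 1.5-fold toward MatDup.dist7 were 1 of the 19 (5.26%) and 5 of the 26 (19.2%), and toward PatDup.dist7 0 and 1. Pole, Prim2 and Gmnn, also past 1.5-fold, had no promoter window and are not in these counts. Among measured genes that are no member the shares toward MatDup.dist7 were 14.7% with and 15.2% without a match, and toward PatDup.dist7 9.73% and 12.6%. Of these non-members, the 524 with an E2F-type match had a median of -0.04 and the 15045 without one of 0.02. Positive differences made up 46.9% and 51.1% of them, against 63.2% and 65.4% of the members with and without a match. Members with a CCAAT match had a median of 0.09 (n = 28) and those without of 0.16 (n = 17). Members with TTTGAA or TTTAAA had a median of 0.31 (n = 12, 9 positive) and those without of 0.04 (n = 33, 20 positive), against 0.04 and 0.00 among genes that are no member. Of those non-members 52.5% and 50.4% were positive. These are descriptions with no test.

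Other genes of the replication pathway were taken from lists by function. Of 28 measured genes for further fork and origin firing factors, 6 were at least 1.5-fold toward MatDup.dist7 (21.4%, against 15.5% of all genes) and 4 toward PatDup.dist7 (14.3%, against 12.5%), with a median of 0.07. After centring these counts were 5 and 6 with a median of -0.01, where 12.3% and 16.03% of all genes passed. With a pseudocount of 64 they were 0 and 1, where 4.1% and 3.72% of all genes passed. Clspn, a checkpoint mediator at the fork, had 54.1 and 14.9 (log2 difference 1.18), and Mcm9, a relative of the ring genes that acts in repair, had 38.9 and 13.9 (0.88). Mcm8, the partner of Mcm9, had 24.2 and was listed at 0.00198 (1.33). All 3 lay under the signal filter. Rnaseh2b, a subunit of the nuclease that removes ribonucleotides from DNA, went the other way, at 104 and 194 (-0.81).

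Of 16 measured further nucleotide genes, 4 were at least 1.5-fold toward MatDup.dist7 (25.0%, against 15.5% of all genes) and none toward PatDup.dist7 (against 12.5%), the list median being 0.09. Samhd1, which breaks down deoxynucleotides, had 514 and 266 (log2 difference 0.91). Shmt1, a folate enzyme, had 19.4 and 4.79 (0.77), under the filter. Rrm2b, the p53-inducible reductase subunit, had 103 and 56.3 (0.72), and Dut, which clears dUTP, had 187 and 109 (0.70). The list thus had enzymes of synthesis and of breakdown among those higher in MatDup.dist7. After centring and after quantile normalisation 1 gene of it passed 1.5-fold toward PatDup.dist7, as did 16.03% and 13.8% of all genes.

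The 22 further E2F and G1/S regulators were balanced, with 11 positive, 2 at least 1.5-fold toward each genotype (9.09%, against 15.5% and 12.5% of all genes) and a median of 0.03, or -0.05 after centring. The atypical repressors E2f7 and E2f8 differed in opposite directions, at 144 and 71.3 (log2 difference 0.87) and at 13.2 and 36.8 (-0.86). Fbxo5, an inhibitor of the anaphase-promoting complex, had 56.9 and 31.1 (0.63), and the D-cyclin kinase gene Cdk6 had 339.9 and 526 (-0.61). E2f8 and Fbxo5 lay under the filter.

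Of 24 measured S-phase chromatin and other E2F-responsive genes, 6 were at least 1.5-fold toward MatDup.dist7 (25.0%, against 15.5% of all genes) and 2 toward PatDup.dist7 (8.33%, against 12.5%), with a median of 0.25. The counts stayed 6 and 2 after centring, where 12.3% and 16.03% of all genes passed. With a pseudocount of 64 they were 2 and 1, where 4.1% and 3.72% passed. Of the 17 above the signal filter they were 3 and 0, where 12.2% and 10.9% of all genes above it passed. Uhrf1, which brings the maintenance methyltransferase to new DNA, had 122 and 35.4 (log2 difference 1.42), and Brip1, a repair helicase, had 29.6 and 8.04 (0.92). Blm, another helicase, was lower in MatDup.dist7, at 3.82 and 47.7 (-1.69), as was the histone chaperone gene Nasp, at 4.46 and 34.5 (-1.30). Brip1, Blm and Nasp lay under the filter. The maintenance methyltransferase gene Dnmt1 itself differed by -0.39.

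Mitotic genes, the list nearest in function, lay further toward MatDup.dist7 than the replication genes. Of 43 measured, 32 were positive, 18 were at least 1.5-fold toward MatDup.dist7 (41.9%, against 15.5% of all genes) and 3 toward PatDup.dist7 (6.98%, against 12.5%), with a median of 0.51 against 0.16 for the replication and G1/S genes. The 18 became 12 after centring and 9 with a pseudocount of 64, where 12.3% and 4.1% of all genes passed. Across the 8 alternatives the mitotic median ran from 0.39 to 0.57, and that of the replication and G1/S genes from 0.08 to 0.19. Cenpf, a kinetochore gene, had 109 and 35.9 (log2 difference 1.27), and Kif23, a motor of cell division, had 92.5 and 29.9 (1.24). Hmmr, a spindle-associated gene, had 50.5 and 11.7 (1.26) and lay under the filter, and Espl1, which encodes separase, had 354 and 145 (1.20). The difference between these lists was not tested, since 1 array per genotype allows no test.

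**Figure D4:**
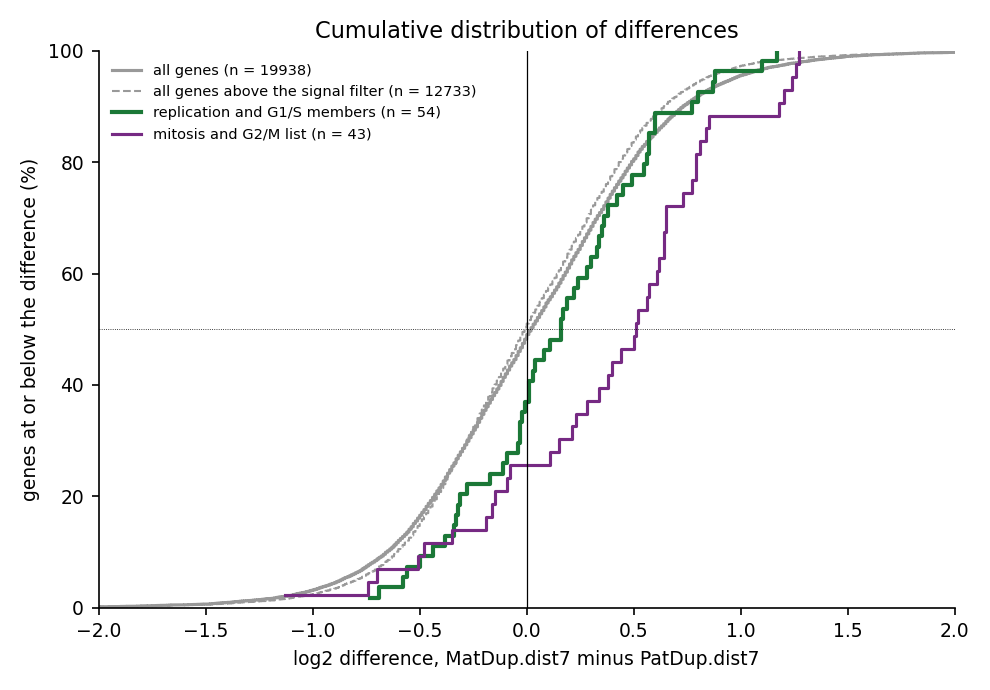
Percentage of genes (y axis) at or below each log2 difference (x axis, MatDup.dist7 minus PatDup.dist7, drawn from -2 to 2) for all 19938 genes, the 12733 above the signal filter, the 54 replication and G1/S genes and 43 mitotic genes. The medians, where the curves cross 50%, are 0.02, -0.01, 0.16 and 0.51.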

How the data were processed

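Each genotype was hybridised to 1 array. The deposited values are probe set intensities on a linear scale; per the submitters' processing notes Affymetrix Expression Console was used, and their background correction, summarisation and scaling were not given in the sources used here. Medians were 68.6 (MatDup.dist7) and 64.2 (PatDup.dist7), and no member had a value under 1. Of 35557 probe sets, 21789 had 1 platform gene symbol and were used, 21698 of them matched to RefSeq (GRCm38.p6) by gene identifier. Calculations used Python 3.11.15, pandas 2.3.3 and numpy 2.4.6 and were tested on simulated arrays. The pseudocount of 16 follows an earlier treatment of these data. With 1 array per group there is no test, p-value or error between cultures; counts use 1.5-fold and 2-fold rules. Array number limits the precision.

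Members, lists and thresholds were chosen with earlier results of these data known. Values are given for all members, and from each pathway list for the 4 genes with the largest absolute difference. Genes named beyond these (Vim, Dcn, Dnmt1, Pole3, Pole4, Pold4, Cdkn1c, Igf2 and the sex-linked genes) serve as checks or context. Alternatives were pseudocounts of 1 and 64, centring, quantile normalisation, the probe set with the highest mean, the signal filter, and leaving out values under 1 or genes of X and Y. Listed genes without a value were not analysed here. A planned look at protein sequences was not made.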

Additional observations from a re-analysis of the deposited data

How the results depend on the processing

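The median log2 difference of the members stayed positive and within 0.1 of its main value of 0.16 under all 8 alternatives, from 0.08 to 0.19. That limit is wide beside 0.16. The 0.08 came with centring, where the median of all genes was -0.06. The number of positive members (29 to 35, or 27 of the 45 above the signal filter) stayed within 1.5 times, also a wide limit. It was 29 after centring and 31 after quantile normalisation, where 46.4% and 50.03% of all genes were positive. The counts past a fold rule moved further. With a pseudocount of 1, 13 members were past 1.5-fold toward MatDup.dist7, 4 toward PatDup.dist7, and 5 at least 2-fold apart (21.9%, 17.7% and 19.5% of all genes). With 64 these counts were 2, 0 and 0 (4.1%, 3.72% and 0.868% of all genes). Members above the signal filter gave 5 toward MatDup.dist7, 2 toward PatDup.dist7 and 1 at least 2-fold apart. Of all genes above it, 12.2%, 10.9% and 5.16% did so. Among these members Prim2, Pole, Gmnn and Mcm10 passed the filter only on the array where they were higher. Centring and quantile normalisation each gave 4 toward PatDup.dist7. Gins3 and Prim1, both under the filter, moved with the pseudocount by more than the spread between probe sets of genes above it. For centring and quantile normalisation the cause was not tested; the pseudocount by construction compresses or widens differences at low signal. The differences of the 10 members past 1.5-fold, of Mcm2 to Mcm7 and of Cdt1, Tyms and Ccne1 kept their sign under the 5 alternatives run on single genes. Each of these genes has 1 probe set, so only centring and quantile normalisation could have changed a sign. Members nearer to equality, such as Pcna and Rpa2, were not traced singly. No paired analysis was possible because each genotype has 1 array and no replicate number, and no array could be left out.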
